A study of Homo sapiens with 6 samples.

Results

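The genes described here encode the machinery that degrades mRNA: the 5′ exonucleases, the decapping factors, the RNA exosome, the deadenylases, the nonsense-mediated decay factors and the pair that rescues stalled ribosomes. They were taken as a list of 55 genes by function, with no measured value in the rule. Of these, 54 had an identifier among the 57905 gene identifiers of the count files. All 54 passed the filter on low counts and were among the 14398 genes tested, with raw counts between 105 and 8271. DCP1A, the cofactor of the decapping enzyme, was matched to no identifier and was not analysed here.

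H929 is an established multiple myeloma line, a cancer of plasma cells. Its total RNA, 5 µg for each sample, was kept for 1 h at 37 °C in an ATP-containing cleavage buffer with 2 µg of a recombinant fragment of human IRE1 (ERN1/IRE1a, amino acids 467 to 977; 3 libraries) or with no protein (3 controls), and every reaction was stopped by 5 min at 95 °C. Poly(A)-containing RNA was then purified and sequenced as stranded paired-end libraries, each in its own flow cell lane. The protein acted on extracted RNA of 1 cell line, so no cell was treated, and the question was which transcripts lose reads to the enzyme.

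IRE1 is the sensor kinase and endoribonuclease of the endoplasmic reticulum that splices XBP1 mRNA and, in regulated IRE1-dependent decay, cuts other mRNAs. A cut leaves a 5′ piece with no poly(A) tail and a 3′ piece with no cap. In cells the 5′ piece is taken by the exosome, a ring of subunits around a channel that feeds the DIS3 nucleases, and the 3′ piece by the 5′-to-3′ exonuclease XRN1. General mRNA decay begins with shortening of the poly(A) tail by PAN2-PAN3 and CCR4-NOT. The LSM1-7 ring with PATL1 then binds the shortened 3′ end, and DCP2, helped by DDX6 and the EDC proteins, removes the cap. Nonsense-mediated decay, led by UPF1, clears mRNAs with early stop codons.

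XRN1 is shown first at the level of sequence, because it was the member with the lowest fold change and the enzyme that in cells digests the 3′ pieces. The gene (ENSG00000114127) lies on the minus strand of GRCh37 at chr3:142025449-142166904, and its canonical transcript in GENCODE 44 has 41 exons and 10079 bases. The letters CTGCAG, written with U in the RNA, are the sequence the study takes as the IRE1 consensus. The study looked for it within a stem-loop near the cleavage region, and XRN1 is not among the mRNAs it names with one. No RNA structure was predicted here. They read the same on both strands, and no other motif was searched. They occur at 4 positions of this transcript, and each is given with 9 bases on either side and the match in capitals. The first match is in coding exon 21, the second in coding exon 25, the third in coding exon 40 and the fourth in the 3′ UTR in exon 41.
XRN1 chr3:142103484-142103489: atgaaacatCTGCAGttgtgtatg
XRN1 chr3:142094671-142094676: tgtattcatCTGCAGcagaacaac
XRN1 chr3:142031440-142031445: tttatacctCTGCAGgttactaaa
XRN1 chr3:142028141-142028146: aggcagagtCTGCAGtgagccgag

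The study selected XRN1 as a putative IRE1 substrate from its exon test. By quantitative PCR it reports a lower level of the 5′ region of every selected candidate in the treated samples. Its primers for XRN1 are shown because they fix where that assay reads the transcript. The forward primer lay in exon 36 at chr3:142051240-142051264 and the reverse primer in exon 37 at chr3:142048343-142048365, with an amplicon of 163 bases. They spanned transcript positions 4268 to 4430, between the second match, at 3035, and the third, at 4870.
XRN1 forward primer: gagatgaatatggattaccctctca
XRN1 reverse primer: tcagttactggtgtggatacagg

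A match is a description of letters and not a cut. All 6 members that fell held at least 1 match, with 29 in all or 0.778 per kb, where 95.4% of all coding genes called lower held one. Of the 12 members that rose, 7 held at least 1, where 64.6% of all coding genes called higher did, and the 12 transcripts held 19 in all or 0.746 per kb. The 36 members with no call had 0.70 per kb, and over 12225 expressed protein-coding genes the density was 0.806 per kb, with a match in 85.3% of their transcripts. By length, the share of all coding transcripts with a match was 66.8% below 2000 bases, 86.1% from 2000 to 4000, 93.8% from 4000 to 6000 and 97.2% above. EDC4 had 14 matches, the most among the called members, while DDX6 had 1. LSM1, LSM7, EXOSC1, EXOSC8 and EXOSC9, which rose, had none. The windows printed here differ in place. In DIS3L a match followed the start codon, in EDC4 a pair of matches lay 9 bases apart on the same strand in exon 27 (the window of the first holds the second in lower case), in DDX6 the single match was in the 3′ UTR, and in LSM3, which rose, all 6 matches were in the 3′ UTR, of which the first is given.
DIS3L chr15:66585938-66585943: gccgccatgCTGCAGaagcgggag
EDC4 chr16:67917036-67917041: gcccatatcCTGCAGctgctgcag
EDC4 chr16:67917045-67917050: ctgcagctgCTGCAGcagggccac
DDX6 chr11:118622110-118622115: gatatgcaaCTGCAGttcatccgc
LSM3 chr3:14240540-14240545: acatcaaccCTGCAGtagaagaca

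The libraries held 19615715 to 25678499 counts on genes. The 10 plasma cell markers, among them SDC1, CD38 and JCHAIN, summed to 238940 to 322940 raw counts in every library, while markers of red cells and endothelium summed to at most 4 and 0. The endothelial sum rests on 2 of 3 markers, because PECAM1 was matched to no identifier. CD3E of T cells and KRT18 of epithelium were not near 0, with means of 917 and 1139 normalized counts in the controls and 1030 and 1352 in the treated libraries. The other markers of their lists were lower, with 0 to 1 raw counts for CD3D, 0 to 7 for CD2, 0 to 2 for EPCAM and 30 to 49 for CDH1. KRT18 was called higher (log2 fold change 0.25, edgeR adjusted p = 0.00787), and CD3E had 0.16 (adjusted p = 0.132). Of the 10 plasma cell markers, MZB1 (0.31, adjusted p = 0.00401) and TNFRSF17 (0.25, adjusted p = 0.00134) were called higher and PRDM1 lower (-0.25, adjusted p = 0.00193), changes in the range of those of the members. The part of any other cell type in the members' results was not tested. BLOC1S1, a substrate of IRE1 outside the list, fell by 1.37 on the log2 scale (SE 0.095, edgeR adjusted p = 1.25e-06), and XBP1, the other known substrate, stood at -0.09 (adjusted p = 0.143) with the treated libraries below the controls. The study reports XBP1 reads as clearly lower 5′ of the cleavage sites and similar in the 3′ region. A whole-gene count adds both regions, so any gene without a call, XBP1 or a member, may still be cut. XBP1 was called lower by library size only (-0.17, adjusted p = 0.00371) and with the trend with transcript length and GC content removed (-0.18, adjusted p = 0.00255). Normalized counts are counts divided by the library size and its TMM factor and brought to the mean library, and a call is an edgeR quasi-likelihood adjusted p under 0.05. These values are relative and give no amount of RNA. A gene said to rise or fall had a larger or smaller scaled share of the library's reads, in RNA that was already extracted.

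Among the 54 members, 6 were lower and 12 were higher in the IRE1-treated libraries, and 36 were not called. These shares, 11.1% and 22.2%, stand beside 12.4% of all tested genes called lower and 10.3% called higher, 22.7% in all. The 6 that fell were XRN1, DDX6, DIS3L, EDC4, PATL1 and CNOT1. The 12 that rose were the whole LSM1 to LSM7 ring, the scavenger decapping enzyme DCPS, the exosome subunits EXOSC1, EXOSC8 and EXOSC9, and the ribosome rescue factor PELO. The median log2 fold change of the members was -0.04, against 0.00 over all tested genes, with a range from -0.66 to 0.36. The 3 treated libraries lay wholly below the 3 controls in 16 members and wholly above in 14, where 20.0% and 19.1% of all tested genes did so, 39.1% together.

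**Figure D1:**
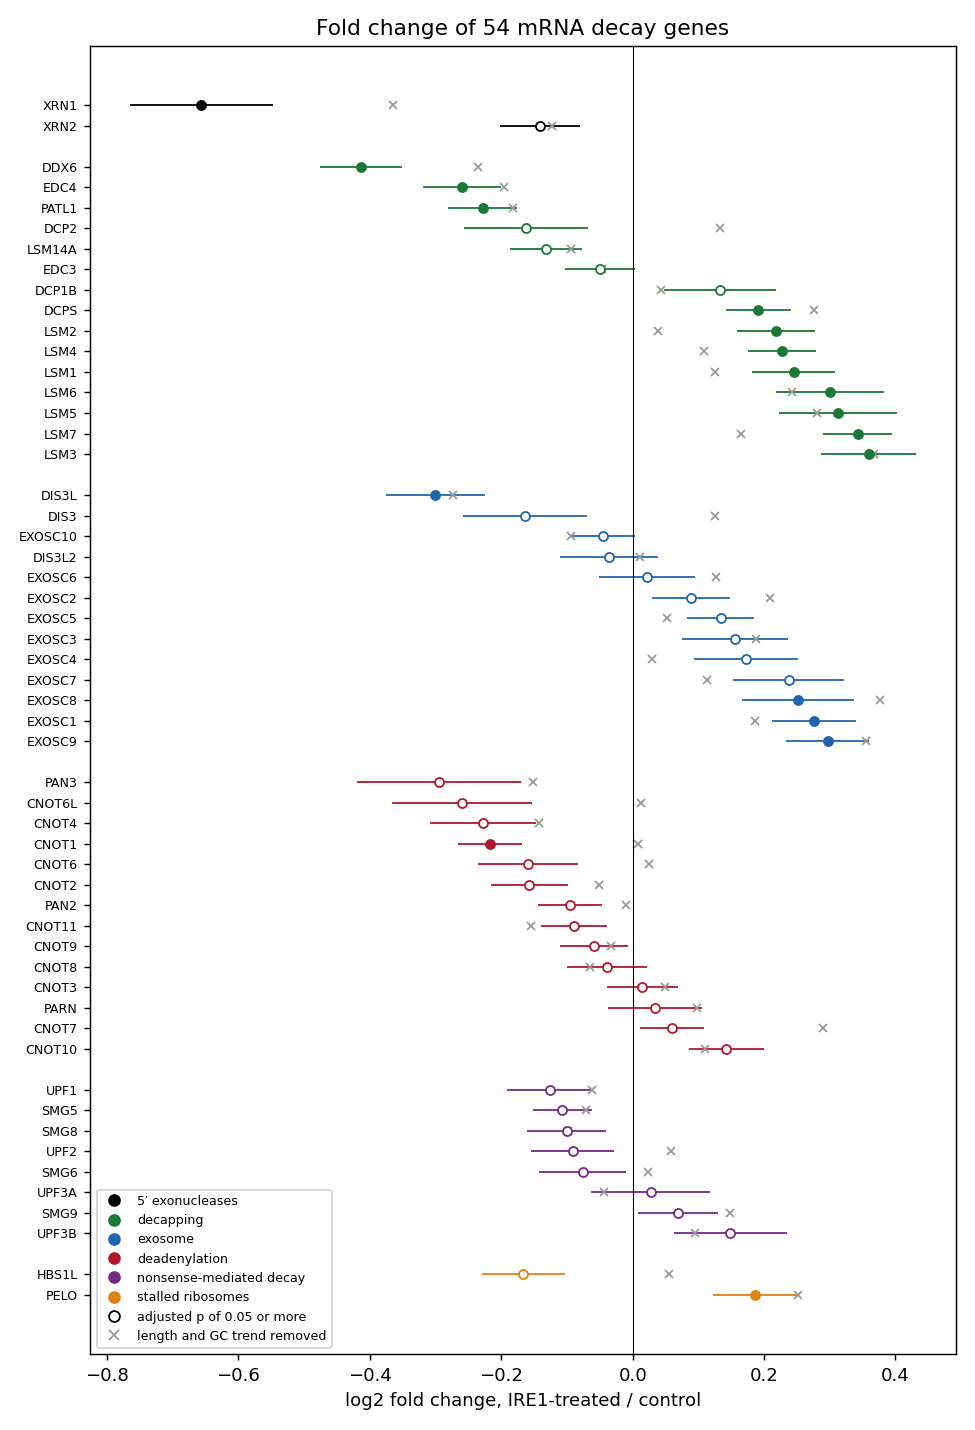
Log2 fold change of each of the 54 members, IRE1-treated over control, by role, with bars of 1 SE, filled circles for calls and crosses for the value after the trend with transcript length and GC content was removed. XRN1 is farthest left at -0.66, the 7 LSM ring genes sit between 0.22 and 0.36, and no filled circle stands among the nonsense-mediated decay genes.

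Of the 5′ exonucleases, XRN1 fell and XRN2 was not called. XRN1, which digests uncapped mRNA in the cytoplasm, gave 1057, 1011 and 858 normalized counts in the controls and 509, 591 and 750 in the treated libraries. The groups did not overlap, and treated replicate 1 was the lowest. The means were 975 ± 104 and 617 ± 123 (SD, n = 3 each), so the treated level was 63.2% of the control, a log2 fold change of -0.66 (SE 0.109, edgeR adjusted p = 7.68e-04). When libraries were left out one at a time, the value stayed between -0.82 and -0.54 and passed the threshold each time, and after removal of the length and GC trend it was -0.36. No annotated exon of another gene overlapped XRN1 on either strand. XRN2, its nuclear counterpart, which acts in transcription termination, had 1134 ± 31.6 and 1028 ± 66.5 normalized counts and a log2 fold change of -0.14 (SE 0.061, adjusted p = 0.109), with the treated libraries below the controls. Without treated replicate 3 its adjusted p was 0.0261. Within each library the log2 ratio of XRN1 to XRN2 was -0.10, -0.21 and -0.36 in the controls and -0.93, -0.78 and -0.55 in the treated samples. Every treated ratio was below every control ratio, and the mean difference was -0.53 (SE 0.133, two-sided exact permutation p = 0.1, the smallest that 3 against 3 allows, 0.217 adjusted over 13 pairs), or -0.25 with the length and GC trend removed.

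Of the 15 decapping genes tested, 3 fell and 8 rose, beside 12.4% and 10.3% of all tested genes. Their median log2 fold change was 0.19. The 3 that fell are partners that connect the decapping enzyme with the LSM ring or assemble P-bodies. DDX6, an RNA helicase that represses translation and activates decapping, gave 2990, 2938 and 2666 normalized counts in the controls against 2000, 2114 and 2335 with IRE1. The treated level was 75.0% of the control with no overlap, a log2 fold change of -0.41 (SE 0.062, edgeR adjusted p = 3.75e-04). EDC4, the large scaffold of the decapping complex, gave 1901, 1883 and 1912 in the controls against 1434, 1694 and 1625. Treated replicate 1 was the lowest and the log2 fold change was -0.26 (SE 0.059, adjusted p = 0.00584). PATL1, which bridges DDX6 and the LSM ring, gave 1297, 1307 and 1288 against 1109, 1120 and 1094, the narrowest groups among the called members. Its log2 fold change was -0.23 (SE 0.052, adjusted p = 0.00573). EDC4 shares exon positions with a pair of same-strand genes, and DDX6 and PATL1 each with 1 antisense gene. The share of reads between them depends on the strand and overlap setting of the counting, which is not given in the sources used here, and DDX6 has 2 pseudogenes.

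All 7 genes of the LSM1-7 ring rose, where 10.3% of all tested genes were called higher. LSM3, a ring subunit shared with the nuclear LSM2-8 ring, had the highest fold change of the members, with 926, 1018 and 1025 normalized counts in the controls and 1416, 1161 and 1234 in the treated libraries. The log2 fold change was 0.36 (SE 0.072, edgeR adjusted p = 0.00261), and treated replicate 1 was the highest. LSM7, with 1500, 1411 and 1545 against 1924, 1887 and 1840, had tighter groups and a log2 fold change of 0.34 (SE 0.052, adjusted p = 4.36e-04). Neither pair of groups overlapped.

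LSM1, the subunit that makes the ring cytoplasmic, gave 832, 863 and 823 normalized counts against 1070, 973 and 945. Its log2 fold change was 0.25 (SE 0.063, edgeR adjusted p = 0.0114). LSM2 gave 1053, 1026 and 1090 against 1306, 1211 and 1173, and LSM4, with its arginine- and glycine-rich tail, 2061, 2172 and 2193 against 2599, 2555 and 2370. Their log2 fold changes were 0.22 (SE 0.059, adjusted p = 0.0145) and 0.23 (SE 0.052, adjusted p = 0.00604). In each of these 3 genes the lowest treated library was above the highest control. LSM5 had 305, 293 and 276 against 394, 345 and 350, and LSM6 had 363, 352 and 337 against 447, 399 and 452. Their log2 fold changes were 0.31 (SE 0.089, adjusted p = 0.0198) and 0.30 (SE 0.082, adjusted p = 0.016), again with no overlap.

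The LSM3 and LSM7 calls held without each library. LSM1 was lost without control replicate 1 (adjusted p = 0.058) or 3 (0.0502), LSM2 without control replicate 1 (0.0656) or 2 (0.087), LSM4 without control replicate 1 (0.0516), LSM5 without control replicate 2 (0.0727) or 3 (0.0812), and LSM6 without control replicate 2 (0.0645) or 3 (0.0679). Scaled by library size only, the 7 genes kept positive fold changes and LSM3, LSM4 and LSM7 kept their calls. After removal of the length and GC trend LSM1, LSM2 and LSM4 were no longer called, at log2 fold changes of 0.13, 0.04 and 0.11. LSM8, which takes the place of LSM1 in the nuclear ring and was in the list of other decay genes, rose by a log2 fold change of 0.38 (SE 0.073, edgeR adjusted p = 0.00212), and by 0.73 with the trend removed. The annotated LSM8 transcript has 12384 bases, and the value with the trend removed depends on that length. LSM1 overlaps BAG4 and another gene on the opposite strand, and LSM1, LSM3 and LSM6 have 2, 4 and 1 pseudogenes that could take or give reads.

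**Figure D2:**
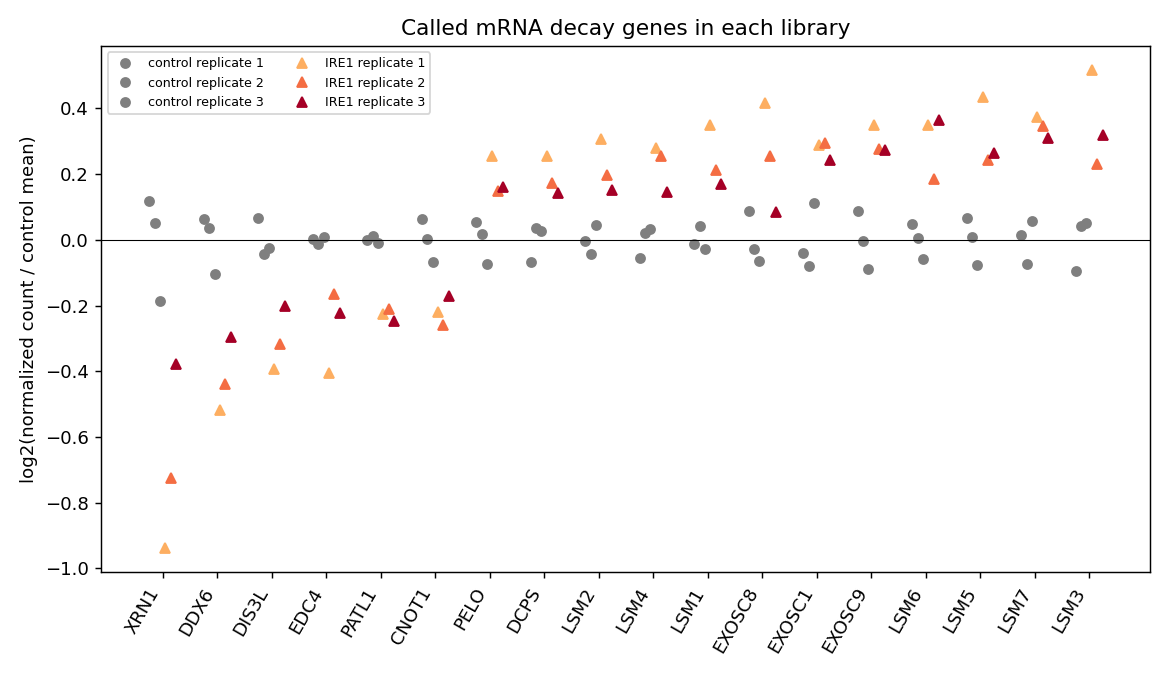
Normalized count of each library divided by the control mean, on a log2 scale, for the 18 called members, with grey circles for control libraries and triangles for IRE1-treated ones. In 17 of them the triangles and circles are apart, and in EXOSC8 the lowest triangle falls just under the highest circle.

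DCPS hydrolyses the cap left after 3′-to-5′ decay. It gave 5321, 5716 and 5676 normalized counts against 6653, 6282 and 6143, a log2 fold change of 0.19 (SE 0.049, edgeR adjusted p = 0.0117), with the treated libraries above. The call was lost without control replicate 1 (adjusted p = 0.0889) and by library size only (0.0797). DCP2, the decapping enzyme itself, had 431 ± 37.9 and 385 ± 42.8 normalized counts and a log2 fold change of -0.16 (adjusted p = 0.242), with overlapping groups. The value was 0.13 with the trend removed, and the adjusted p was 0.046 without treated replicate 3. DCP1B, EDC3 and LSM14A had log2 fold changes of 0.13, -0.05 and -0.13 with no call. LSM14A against its partner DDX6 was a log2 ratio of -0.71, -0.59 and -0.47 in the controls and -0.18, -0.38 and -0.37 in the treated samples. The groups did not overlap, with a difference of 0.28 (SE 0.095, two-sided exact permutation p = 0.1, 0.217 adjusted over 13 pairs), which was 0.14 (p = 0.2) with the trend removed. EDC4 against EDC3 was 0.36, 0.35 and 0.29 in the controls and -0.07, 0.28 and 0.15 with IRE1, a difference of -0.21 (SE 0.102, the same p), again with no overlap, and -0.12 without treated replicate 1.

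In the exosome, 1 of 13 genes fell and 3 rose, beside 12.4% and 10.3% of all tested genes. The median log2 fold change was 0.13. The ring subunits EXOSC8 and EXOSC9 and the cap subunit EXOSC1 rose. EXOSC9 gave 847, 796 and 750 normalized counts against 1015, 966 and 964 with no overlap, a log2 fold change of 0.30 (SE 0.063, edgeR adjusted p = 0.00365). EXOSC1, one of the RNA-binding cap proteins, gave 792, 770 and 880 against 994, 998 and 963, a log2 fold change of 0.28 (SE 0.064, adjusted p = 0.0063). It was not called without control replicate 2 (adjusted p = 0.0533). EXOSC8 gave 517, 478 and 466 against 650, 581 and 517 and was the only called member whose groups overlapped. Its log2 fold change was 0.25 (SE 0.085, adjusted p = 0.045), and the call was lost by DESeq2, by library size only and without any one library other than treated replicate 3, with adjusted p from 0.0691 to 0.148 over those 5 leave-outs. EXOSC8 and EXOSC9 overlap SUPT20H and CCNA2 on the opposite strand.

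Of the exosome's nucleases and DIS3L2, DIS3L fell and the others were not called. DIS3L, the cytoplasmic exonuclease of the complex, gave 598, 555 and 562 normalized counts in the controls and 436, 459 and 497 in the treated libraries. The groups were apart, with a log2 fold change of -0.30 (SE 0.075, edgeR adjusted p = 0.00965), and the adjusted p was 0.0677 without control replicate 1. DIS3, the nuclear nuclease, was at -0.16 (SE 0.094, adjusted p = 0.232), at 0.13 with the trend removed, and called without treated replicate 3 (adjusted p = 0.0123). DIS3L2, which degrades uridylated RNA without the exosome, was at -0.04 (adjusted p = 0.777). EXOSC10, the second nuclear nuclease, was at -0.05. The other ring and cap subunits lay between 0.02 for EXOSC6 and 0.24 for EXOSC7 (adjusted p = 0.0537), with none called, and EXOSC6 was at -0.05 by library size only. The ratio of DIS3L to DIS3 overlapped between the groups, with a difference of -0.12 (SE 0.086, two-sided exact permutation p = 0.3). With the trend removed it was -0.39 and at the smallest p, 0.1. DIS3L overlaps a pair of antisense genes.

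Of the 14 deadenylation genes, 1 fell and 0 rose by edgeR and by DESeq2, with 5 lower and 1 higher at an unadjusted p under 0.05. Of all tested genes, edgeR called 12.4% lower and 10.3% higher, and 18.2% were lower and 16.7% higher at that unadjusted p. DESeq2 called 13.8% lower and 11.9% higher of those it gave an adjusted p. The role had a median log2 fold change of -0.09. The treated libraries lay below the controls in 6 genes and above in 1, and the groups overlapped in 7. Over all tested genes, 20.0% lay below and 19.1% above. CNOT1, the scaffold of CCR4-NOT, gave 6980, 6689 and 6377 normalized counts in the controls and 5734, 5584 and 5934 in the treated libraries. The treated level was 86.1% of the control, a log2 fold change of -0.22 (SE 0.049, edgeR adjusted p = 0.00528) with no overlap. Without control replicate 1 the adjusted p was 0.0509, and after removal of the length and GC trend the log2 fold change was 0.01, the only called member that changed sign. PAN3, the partner that brings the PAN2 nuclease to its RNA, had the lowest log2 fold change of the role, -0.30 (SE 0.125, adjusted p = 0.103), at 165 ± 15.5 and 134 ± 15.7 normalized counts. Its adjusted p was 0.0329 without treated replicate 3. CNOT10 was at the other end with 0.14 (SE 0.057, adjusted p = 0.0858).

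The 4 deadenylase subunits of CCR4-NOT come as pairs of paralogs. CNOT6L and CNOT6 had log2 fold changes of -0.26 (adjusted p = 0.0927, and 0.00614 without treated replicate 3) and -0.16 (0.148), which were 0.01 and 0.02 with the trend removed, and CNOT8 and CNOT7 of -0.04 (0.698) and 0.06 (0.417). The log2 ratio of CNOT8 to CNOT7 was -1.57, -1.58 and -1.52 in the controls and -1.66, -1.64 and -1.67 in the treated samples. The treated ratios were all lower, with a difference of -0.10 (SE 0.023, two-sided exact permutation p = 0.1, 0.217 adjusted over 13 pairs), or -0.36 with the trend removed. CNOT6L to CNOT6 overlapped, and the difference of -0.11 (SE 0.124) became 0.00 without treated replicate 1. The scaffold against CNOT9, another subunit without nuclease activity, gave a difference of -0.16 (SE 0.054) with the treated ratios all lower, and 0.04 once the length and GC trend was removed.

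**Figure D3:**
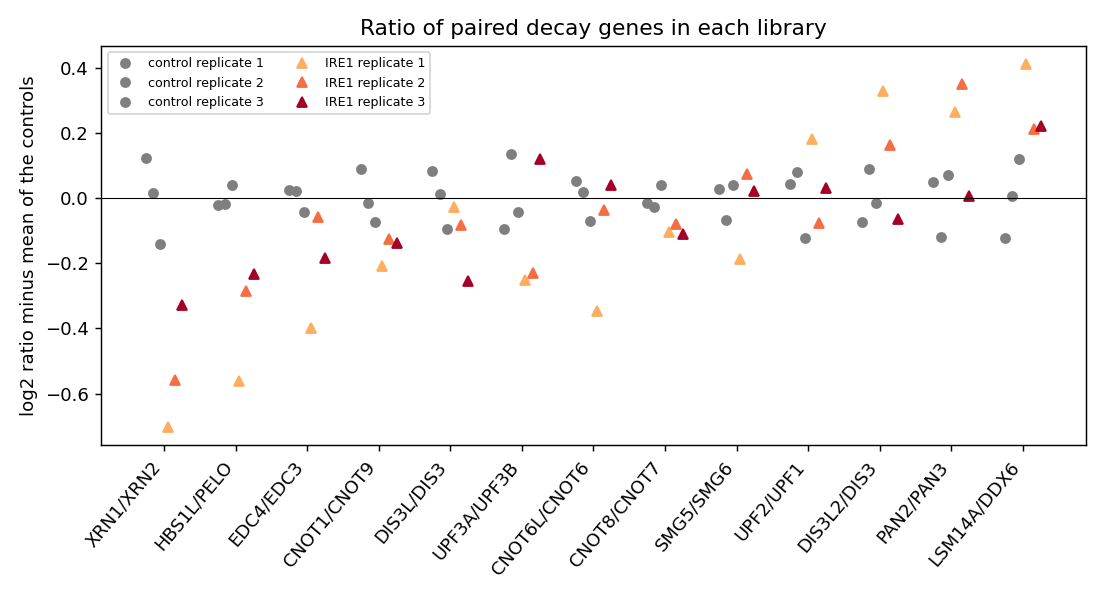
Log2 ratio of paired members within each library minus the mean of the control libraries, with grey circles for controls and triangles for IRE1-treated libraries, for 13 pairs. The ratio XRN1/XRN2 is lowest with a difference of -0.53, LSM14A/DDX6 is highest with 0.28, and 7 pairs overlap.

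Of the 8 nonsense-mediated decay genes, 0 were called by edgeR and by DESeq2, and 1, SMG5, had an unadjusted p under 0.05 (0.0295), beside 22.7% of all tested genes called by edgeR, 13.8% lower and 11.9% higher by DESeq2, and 18.2% lower and 16.7% higher at the unadjusted p. Their log2 fold changes lay between -0.13 for UPF1 (SE 0.065, adjusted p = 0.183), the helicase of the pathway, and 0.15 for UPF3B (SE 0.086, adjusted p = 0.237), which links it to the exon junction complex, with a median of -0.08. UPF1 had 2766, 2636 and 2696 normalized counts in the controls and 2164, 2658 and 2591 in the treated libraries. Treated replicates 1 and 3 stood below every control, and replicate 2 was within their range. SMG5, an adaptor that recruits decay enzymes to phosphorylated UPF1, had the treated libraries below the controls, at 4780 ± 84.1 and 4436 ± 76.6 normalized counts (log2 fold change -0.11, SE 0.045, adjusted p = 0.0984). UPF3B passed the threshold without treated replicate 3 (adjusted p = 0.0475). The ratios UPF2/UPF1, UPF3A/UPF3B and SMG5/SMG6 all overlapped between the groups.

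PELO and HBS1L split ribosomes stalled at the end of a broken mRNA, and of the pair PELO rose and HBS1L was not called. PELO gave 774, 755 and 709 normalized counts against 891, 826 and 834, a log2 fold change of 0.19 (SE 0.064, edgeR adjusted p = 0.0452). The treated libraries were all higher, yet the call was lost by DESeq2 (adjusted p = 0.0737) and without any one library other than treated replicate 3 (0.0777 to 0.168). HBS1L gave 1248, 1218 and 1194 against 988, 1108 and 1161, with no overlap and a log2 fold change of -0.17 (SE 0.063, adjusted p = 0.0685). Without treated replicate 3 its adjusted p was 0.0139, and after removal of the length and GC trend the value was 0.05. The log2 ratio of HBS1L to PELO was 0.69, 0.69 and 0.75 in the controls and 0.15, 0.42 and 0.48 with IRE1, a difference of -0.36 (SE 0.104, two-sided exact permutation p = 0.1, 0.217 adjusted over 13 pairs), or -0.20 with the trend removed. PELO lies within ITGA1 on the same strand.

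The members' fold changes ran with transcript length. Spearman's correlation of the log2 fold change with the length of the canonical transcript was -0.74 across the 54 members and -0.57 across 14111 tested genes with a length. Genes of 1 library share its depth and RNA, so these are descriptions across genes and not across replicates. Of 11 members under 2000 bases, 7 rose and 0 fell, where 25.0% and 0.943% of all tested genes of that length did. Of 9 members of 6000 bases or more, 3 fell (XRN1, DDX6 and CNOT1) and 0 rose, where 41.1% and 1.69% of all such genes did. Between 2000 and 4000 bases 1 of 22 fell and 3 rose, where 3.65% and 6.33% of all such genes did. Between 4000 and 6000 bases 2 of 12 fell and 2 rose, where 21.4% and 2.31% did. The trend was fitted on the length of a gene's longest annotated transcript, not the canonical length, and on the GC content of the canonical one. These lengths can differ widely, as in EXOSC8 (4683 against 1166 canonical bases) and EXOSC2 (5922 against 2012). Once the trend with length and GC content was taken out of every library, the members' correlation with canonical length was -0.29, and 6 were lower and 11 higher beside 5.15% and 8.88% of all tested genes (14.0% together). XRN1, DDX6, EDC4, PATL1 and DIS3L kept a lower call, and CNOT11 joined them, with log2 fold changes of -0.24 for DDX6 and -0.20 for EDC4. DCPS, LSM3, LSM5, LSM6, LSM7, EXOSC1, EXOSC8, EXOSC9 and PELO kept a higher call, and CNOT7 and EXOSC2 joined them, with LSM7 at 0.17. Of the members without a call, DCP2, DIS3, DIS3L2, CNOT6, CNOT6L, UPF2, SMG6 and HBS1L turned from below to above 0 and UPF3A from above to below. Between the groups, measures of the libraries also differed without overlap: the treated libraries had 5.12 to 5.33% of gene counts on mitochondrial genes against 4.89 to 4.97% in the controls, 6.25 to 6.46% of all counts on no feature against 6.62 to 6.80%, and 8.85 to 8.96% of gene counts on the top 10 genes against 8.39 to 8.45%. Ambiguous counts were 4.107 to 4.244% of all counts against 3.932 to 4.026%, and counts not uniquely aligned 11.41 to 12.58% against 10.68 to 11.4%. The part of these measures and of RNA length or integrity in the calls was not tested.

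**Figure D4:**
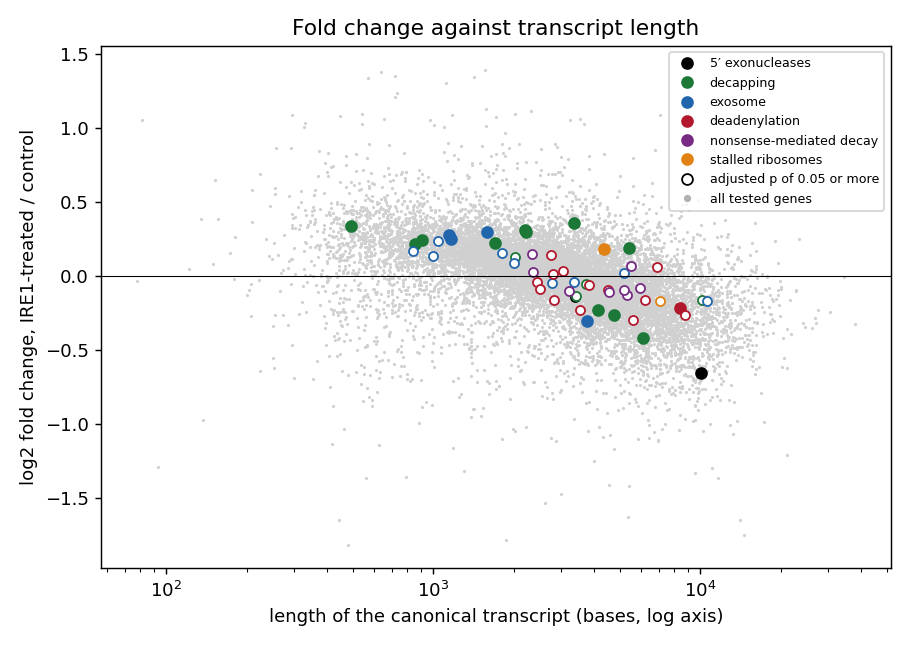
Log2 fold change, IRE1-treated over control, against the length of the canonical transcript on a log axis, with small grey points for all tested genes and coloured circles for the members by role, filled where called. The members follow the slope of the grey points, and XRN1, at 10079 bases and -0.66, lies toward its lower edge.

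The choice of scaling moved the balance of the calls. The 3 treated libraries had TMM factors of 0.947, 0.980 and 0.996, and the 3 controls of 1.02 to 1.03. By library size only, the median over all genes was -0.07, 14 members were lower and 5 higher, and the shares of all tested genes were 18.0% and 4.74% (22.8% together). All 6 lower calls and the higher calls of LSM3, LSM4, LSM7, EXOSC1 and EXOSC9 were retained, and XRN2, LSM14A, CNOT2, CNOT4, CNOT11, PAN2, SMG5 and HBS1L were called lower in addition. Treated replicate 1 was the most shifted from the control mean in 4 of the 6 lower and 10 of the 12 higher members, with medians of -0.40 and 0.35. Replicate 2 stood at -0.29 and 0.24 and replicate 3 at -0.23 and 0.21. That library also had the fewest counts on genes and the lowest TMM factor. Its part in the calls was not tested, and without it 7 members were lower and 11 higher, beside 11.4% and 9.80% of all tested genes. Without treated replicate 3, 15 were lower and 15 higher, beside 15.3% and 14.4%. The 9 members that were then called lower in addition were XRN2, DCP2, LSM14A, DIS3, CNOT2, CNOT4, CNOT6L, PAN3 and HBS1L, and the 3 called higher were EXOSC4, EXOSC5 and UPF3B. Without control replicate 1, 4 were lower and 6 higher, beside 6.68% and 4.88%.

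On the scale of TMM-scaled CPM per kb of canonical transcript, the members' control means ranged from 1.33 for PAN3 to 136 for LSM7. On this scale XRN1 stood at 4.35 ± 0.466 in the controls and 2.75 ± 0.548 with IRE1, and XRN2 at 15.0 ± 0.418 and 13.6 ± 0.879. The LSM ring spanned a wide range in the controls, from 5.92 for LSM5 and 7.09 for LSM6, through 13.3 for LSM3 and 41.7 for LSM1, to LSM2 at 55.4 ± 1.68, LSM4 at 56.6 ± 1.88 and LSM7 at 136. LSM2 and LSM4 differed by less than the sum of their SDs. The scale divides by 1 annotated length per gene, 491 bases for LSM7 and 2214 for LSM5, and the transcript forms in use were not measured. In normalized counts the control means were 291 for LSM5 and 1486 for LSM7, so part of the range comes from the lengths.

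The other genes of the pathway were taken from a list of 63, of which 62 were tested. In this list 24 fell and 6 rose, with a median log2 fold change of -0.12, beside the same 12.4% and 10.3% of all genes. Deadenylation partners, mostly proteins that bring CCR4-NOT or PAN2-PAN3 to mRNAs or bind poly(A), with the related nucleases PDE12, ANGEL1 and ANGEL2, held 12 of the 24 (7 lower with the length and GC trend removed, 6 of them among the 12), and 0 of the 19 rose by edgeR, by DESeq2 or at an unadjusted p under 0.05. With the trend removed, 5.15% of all tested genes were lower. At that unadjusted p 16.7% were higher, and DESeq2 called 11.9% higher of those it gave an adjusted p. TNRC6C, a scaffold of microRNA silencing, gave 290, 312 and 263 normalized counts against 162, 179 and 170, the lowest fold change of the list with -0.76 (SE 0.103, edgeR adjusted p = 2.11e-04). Its groups were far apart. TNRC6A fell by 0.60 on the log2 scale (SE 0.069, adjusted p = 7.25e-05). SMG1, the kinase that phosphorylates UPF1, gave 1043, 1017 and 853 against 521, 632 and 685, a log2 fold change of -0.66 (SE 0.093, adjusted p = 2.70e-04), though it has 7 pseudogenes. N4BP2, a homologue of endonucleases that cut mRNA at stalled ribosomes, fell by 0.65 (SE 0.137, adjusted p = 0.00353). These transcripts are long, with 10391 bases for TNRC6C, 8491 for TNRC6A, 16062 for SMG1 and 9720 for N4BP2, and after removal of the length and GC trend their log2 fold changes were -0.52, -0.38, -0.32 and -0.35.

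Beside LSM8, MAGOH and SKIC8 had the highest fold changes among the other genes that were called. MAGOH, a core protein of the exon junction complex, rose from 676 ± 26.6 to 853 ± 75.6 normalized counts, a log2 fold change of 0.33 (SE 0.072, edgeR adjusted p = 0.00401), and was not called after removal of the trend (adjusted p = 0.0899). SKIC8, of the Ski complex that threads RNA into the cytoplasmic exosome, rose by a log2 fold change of 0.24 (SE 0.060, adjusted p = 0.0108) and lost its call without control replicate 2 (0.0701) or treated replicate 2 (0.0618), and by library size only (0.0803). TNRC6A was outside the rule for named genes and was chosen after its values were seen.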

How the data were processed

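Read pairs of 6 libraries were trimmed with cutadapt 1.12, aligned with STAR 2.5.3a to GRCh37 (Ensembl annotation) and counted per gene with HTSeq 0.6.1p1 by the authors, as the submitters' processing notes and the study's methods give it. The strand and overlap settings are not given in the sources used here. The deposited raw counts per gene were the main values. The 5 summary lines without a gene (21.4 to 23.2% of counts) were left out. The authors also deposited CPM for part of the genes, rounded, which served in 1 alternative.

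Gene counts were tested with edgeR 4.0.16 in R 4.3.3 (filterByExpr, TMM, quasi-likelihood, Benjamini-Hochberg over 14398 genes, threshold 0.05), 3 IRE1 against 3 control libraries without covariates. The series' design text calls the samples biological replicates of 1 line. Ratios within a library used a pseudocount of 0.5 and a two-sided exact permutation test. GENCODE release 44 lifted to GRCh37 gave names, exons and transcripts for 55538 of 57905 identifiers, and a gene's canonical transcript was its MANE Select one where given. Motif windows were read from the transcripts. No protein sequence table was at hand. No pair of libraries differed by less than sampling noise, with 2.20 as the lowest chi-square per gene. The study's exon test was not repeated.

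On simulated counts, 100 of 100 genes with 2-fold and 67 of 100 with 1.25-fold changes were called, with 12 false calls among 14036 unchanged genes, so that changes of the members' size can be missed.

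The alternatives tried were upper quartile scaling or library size alone, DESeq2 1.42.0, no filter or one of 10 counts in every library, limma 3.58.1 on log2 of the authors' CPM (pseudocount 1), removal of a loess trend (span 0.5) with length and GC content, a replicate block, the block and the trend together, and leaving out single libraries. The trend took the length of the longest annotated transcript and the GC content of the canonical one. Named genes were every called member and, in each role, the members with the lowest and highest fold change. From the other decay genes, the 3 lowest and 3 highest among those called were named. The members and lists were chosen with earlier results of these data known.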

Additional observations from a re-analysis of the deposited data

How the results depend on the processing

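DDX6, EDC4, EXOSC9, LSM3, LSM7, PATL1 and XRN1 passed the threshold under all 15 alternatives, EXOSC8 under 8 and PELO under 6. By library size only, 14 members were lower and 5 higher, 683 genes were higher over all tested genes, and 2 of the other decay genes were higher. With the length and GC trend removed, 741 tested genes and 12 of the other decay genes were lower (612 and 10 with the replicate block added). The trend turned the ratios DIS3L2/DIS3 to -0.108 and CNOT1/CNOT9 to 0.041, and, among the members that were called or had the lowest or highest value of their role, CNOT1 and HBS1L to log2 fold changes of 0.0075 and 0.055 (0.0078 and 0.054 with the block); the cause was not tested. Leaving out 1 library, the calls ranged from 4 to 15 lower and 6 to 15 higher among the members, from 972 to 2221 and from 638 to 2091 over all tested genes, and from 15 to 26 and from 2 to 6 among the other decay genes. The same leave-outs gave differences from -0.19 to 0.0019 for CNOT6L/CNOT6 (the sign turned without treated replicate 1), from -0.024 to 0.11 for UPF2/UPF1 (-0.024 without treated replicate 1 and -0.016 without control replicate 3) and from -0.083 to 0.048 for SMG5/SMG6 (0.048 without treated replicate 1). The replicate numbers did not pair the libraries (correlations of same-numbered libraries -0.036, -0.005 and -0.112), and with the replicate block 6 members were lower and 11 higher (1496 and 1117 of 14398 tested genes), with PELO no longer called (adjusted p = 0.0834), and 3 of the other genes higher. A simulated 1.25-fold change was recovered in 67 of 100 genes, so a member without a call may still differ.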
